A study of Mus musculus with 8 samples.

Results

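The genes described here are 10 retinol and retinaldehyde dehydrogenases measured in mouse liver. Rdh10, Rdh16, Dhrs9 and Adh1 encode enzymes that oxidize retinol, Rdh11, Dhrs3 and Dhrs4 enzymes that reduce retinaldehyde, and Aldh1a1, Aldh1a2 and Aldh1a7 members of the family that oxidizes retinaldehyde. They were chosen by name, as the non-control probes whose gene name on the array equals a listed symbol, and no measured value entered that rule. The rule found 17 of 41174 gene probes, and 16 of these passed the filter: in 1 diet group or more, both arrays had to read the probe as well above background. All 10 members had a kept probe, among 17267 genes tested.

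Livers came from male C57Bl/6J mice, 14 weeks old and fasted for 4 h, and their RNA was hybridised to 8 single-colour Agilent arrays. A group name gives the diet of the dam and then that of the offspring after weaning, and each of the 4 groups has 2 arrays. The dams of BD_HF mice stayed on a standard breeder diet, and the offspring ate a high fat diet with 60% of energy as fat. LF_HF offspring ate the same high fat diet, but their dams had moved, on embryonic day 10.5, to a defined diet low in fat, 12% of energy, with sufficient vitamin A. LF_LF mice and their dams had this sufficient low fat diet, and VAD_VAD mice and their dams had the matching low fat diet deficient in vitamin A. All dams had the breeder diet before any switch. BD_HF and LF_LF therefore differ in the diet of the dam and in the diet after weaning, and how much vitamin A the breeder and high fat diets held was not used here. The labels number the samples of a group without saying whether each was a separate animal, so a p-value here reflects only how far these samples spread, which may be technical.

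Retinoic acid, the form of vitamin A that binds nuclear receptors, is made from retinol by a reversible and then an irreversible oxidation. Short-chain dehydrogenases such as Rdh10 and the cytosolic alcohol dehydrogenase Adh1 turn retinol into retinaldehyde, reductases such as Dhrs3 and Rdh11 turn it back, and the Aldh1a enzymes commit it to retinoic acid. Liver holds most of the body's vitamin A, as retinyl esters in stellate cells, while hepatocytes take up, secrete and oxidize retinol.

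Levels below are log2 signals minus the 75th percentile of the array, and differences are between group means on that scale, with the standard error (SE) of limma's fit to all 8 arrays; n = 2 arrays a group unless stated. Levels of different probes are not comparable with each other. In bulk liver, fewer cells of a type and less RNA per cell cannot be told apart. Of the 18 listed hepatocyte markers, 16 were tested and all 14 with a value on every array were well above background on every array.

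LF_HF replicate 1 stood apart from the other 7 arrays. Its 75th percentile of signal was 484 against 190 to 281, 82.2% of its probes were well above background against 56.5% to 64.2%, and 2707 of its spots were outliers against 46 to 316. The SD over genes of the difference between replicates was 1.47 in LF_HF and 0.407 to 0.711 in the other groups. Member differences and class medians that use the LF_HF arrays are also given without replicate 1. LF_HF is then n = 1, so its comparisons have no replicate and the spread comes from the other groups alone. Fits without LF_HF replicate 2, and counts of genes that rose or fell in LF_HF in any such fit, have the same limit. The 2 slides each held replicate 1 or replicate 2 of every group.

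No member passed an adjusted p under 0.05 in any comparison or in the F-test over the 4 groups, by limma with Benjamini-Hochberg adjustment over all genes. In LF_HF minus LF_LF, 0 of 10 members were called where 2.58% of all genes were, in BD_HF minus LF_HF 0 of 10 against 0.00579%, in VAD_VAD minus LF_LF 0 of 10 against 0.614%, and in BD_HF minus LF_LF 0 of 10 against 1.62%. The F-test called 0.979% of all genes. At an unadjusted p under 0.05 the member counts were 0, 1, 3 and 3 of 10 in that order, and the shares over all genes were 16.5%, 5.4%, 10.2% and 12.7%. The share of all genes called with the first group higher was 0.597%, 0%, 0.0927% and 0.463% in that order, and with it lower 1.99%, 0.00579%, 0.521% and 1.16%.

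Among members with a value on all arrays compared, replicates did not overlap for 3 of 10, 3 of 9, 6 of 10 and 8 of 9, and for 42.2%, 27.3%, 57.5% and 59.5% of genes with a value on all arrays compared. With the first group higher this held for 2, 2, 3 and 5 members, against 19.5%, 17.7%, 30.7% and 31.8% of genes. With the first group lower it held for 1, 1, 3 and 3 members, against 22.7%, 9.53%, 26.8% and 27.7% of genes. The comparisons share arrays, LF_LF in 3 of them and LF_HF in 2.

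**Figure D1:**
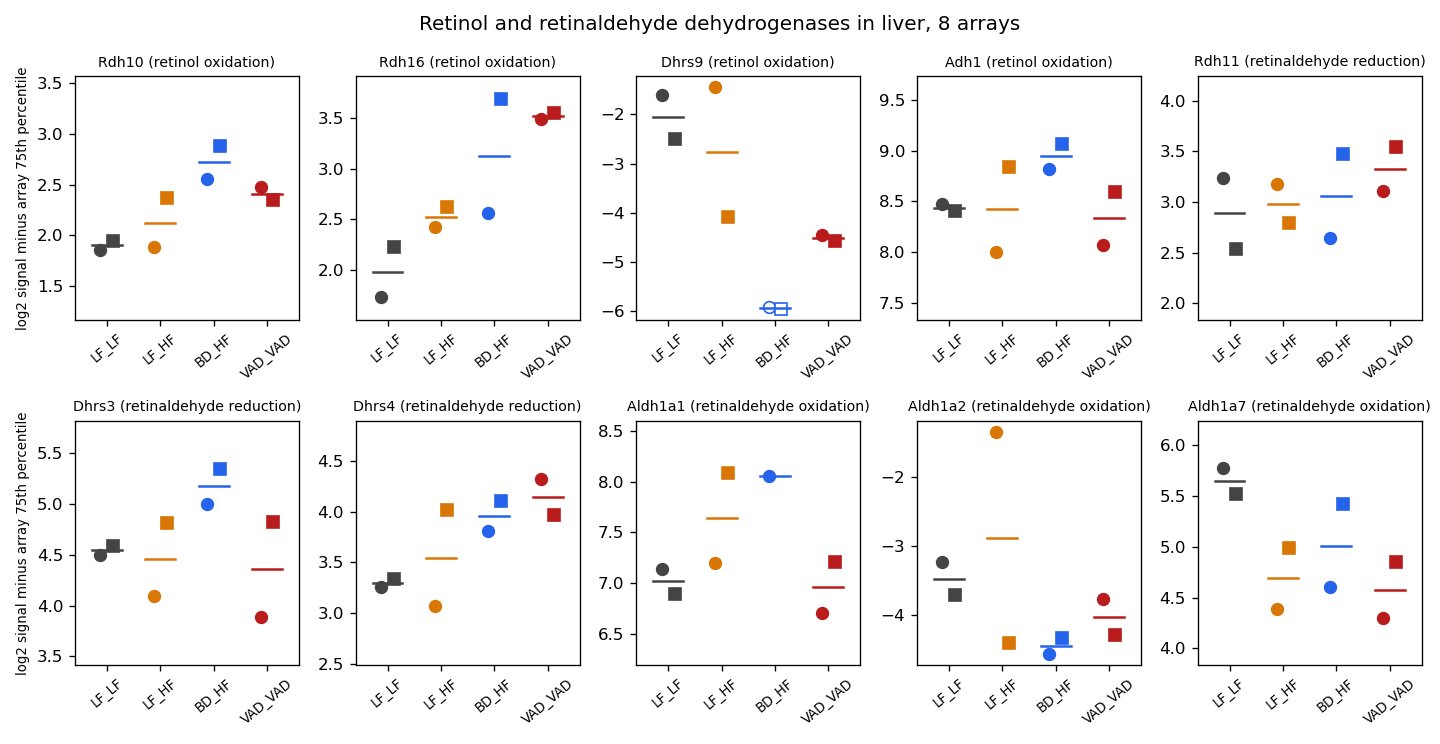
Level of each member (log2 signal minus the array's 75th percentile, y axis, its range set per gene) in the 4 diet groups; circles are replicate 1, squares replicate 2, lines the group mean, and open symbols arrays not well above background. Dhrs9 runs from −1.45 on LF_HF replicate 1 to −5.94 on BD_HF replicate 2, and Rdh16 from 1.74 in LF_LF to 3.69 in BD_HF.

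Among the retinol-oxidizing members, Dhrs9 and Rdh16 lay at opposite ends of the differences. Dhrs9, a microsomal short-chain dehydrogenase, had log2 levels of −1.62 and −2.50 in LF_LF, −1.45 and −4.08 in LF_HF, −4.46 and −4.56 in VAD_VAD, and −5.92 and −5.94 in BD_HF. Both LF_LF arrays were above both VAD_VAD and both BD_HF arrays, and LF_HF replicate 1 was above LF_LF while replicate 2 lay between LF_LF and VAD_VAD. Its signal was dim, at 89.8 and 49.6 on the LF_LF arrays and 3.79 and 3.58 on the BD_HF arrays, where it was not well above background.

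BD_HF therefore gives Dhrs9 only a bound, set per array as the higher of its own level and the lowest level of any probe read as well above background. Against that bound Dhrs9 was at least 7.46-fold lower in BD_HF than in LF_LF, with measured mean levels of −5.93 and −2.06 and a log2 difference of −3.87 (SE 0.775, adjusted p = 0.0670 by limma). With slide, and so replicate number, as a block the adjusted p was 0.0486, which is past the threshold. Over the alternatives tried, this adjusted p ranged from 0.000745 to 0.537 and the log2 difference from −4.31 to −0.72, the last with normexp background correction. The difference was −4.30 on slide 1 and −3.44 on slide 2. It was at least 4.58-fold lower in BD_HF than in LF_HF (measured log2 difference −3.16, SE 0.775, adjusted p = 0.782). That bound was 1.84-fold without LF_HF replicate 1 (measured log2 difference −1.84, n = 1 in LF_HF).

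In the vitamin A deficient group Dhrs9 was 5.47-fold below LF_LF, a log2 difference of −2.45 (SE 0.775, adjusted p = 0.299). The same difference had an adjusted p of 0.0121 when LF_HF replicate 1 was left out of the fit, since the LF_HF arrays enter the shared estimate of the spread, and adjusted p values over the alternatives ran from 0.0121 to 1.00. The log2 difference ran from −2.89 to −0.75, again the last with normexp. In LF_HF minus LF_LF the log2 difference of Dhrs9 was −0.71 (SE 0.775, adjusted p = 0.694). It was −2.02 without LF_HF replicate 1 and 0.61 without LF_HF replicate 2, each with n = 1 in LF_HF, so the direction rests on which array is used. The F-test over the 4 groups gave Dhrs9 the smallest p of the members, 0.00519 (adjusted p = 0.141).

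A second Dhrs9 probe, 60 bases within chr2:69239833-69239892 of mm9, had log2 levels of −3.68 and −5.44 in LF_LF, −3.38 and −6.23 in LF_HF, −7.46 and −7.34 in VAD_VAD, and −7.36 and −7.26 in BD_HF. It was well above background on 3 of 8 arrays, both of LF_LF and LF_HF replicate 1. As bounds, it was at least 1.42-fold lower in VAD_VAD and at least 1.32-fold lower in BD_HF than in LF_LF. Its differences had the sign of the brighter probe, at chr2:69242464-69242523 of mm9, in all 4 comparisons. It passed the filter through LF_LF alone, where it was high, so this shared sign is not independent support. In BD_HF minus LF_HF its bound was 1.12-fold and rested on LF_HF replicate 1, without which no bound could be set.

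Rdh16, which oxidizes retinol and hydroxysteroids and is abundant in liver, had log2 levels of 1.74 and 2.23 in LF_LF, 2.43 and 2.62 in LF_HF, 2.56 and 3.69 in BD_HF, and 3.49 and 3.55 in VAD_VAD. Both arrays of each other group lay above both LF_LF arrays. In VAD_VAD the mean level was 3.52 ± 0.0432 (SD, n = 2) against 1.98 ± 0.348 in LF_LF, 2.90-fold higher, with a log2 difference of 1.54 (SE 0.429, 95% interval 0.53 to 2.54, adjusted p = 0.235). In BD_HF the log2 difference from LF_LF was 1.14 (SE 0.429, adjusted p = 0.323), and in LF_HF it was 0.54 (SE 0.429, adjusted p = 0.578). Over the alternatives tried the deficient group stayed higher, by 1.29 to 1.78 on the log2 scale, with adjusted p values from 0.0550 to 1.00. The F-test p was 0.0346 (adjusted p = 0.323).

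The bases before the start sites of Dhrs9 and Rdh16 are shown, from RefSeq on GRCm38.p6. Among the members whose promoter was read, these genes alone had both TATAAA and AGGTCA near the start site. They were chosen for holding both, not by their F-test p, which was also the smallest of the members. Capitals mark TATAAA on the printed strand and TGACCT, which reads AGGTCA, a half-site of nuclear receptors, on the other strand. Dhrs9 is shown for chr2:69380212-69380461 and Rdh16 for chr10:127800903-127801089, which stops short of the gene's first annotated base. The noncoding gene Gm36393 spans the Dhrs9 start in the same RefSeq table.
Dhrs9: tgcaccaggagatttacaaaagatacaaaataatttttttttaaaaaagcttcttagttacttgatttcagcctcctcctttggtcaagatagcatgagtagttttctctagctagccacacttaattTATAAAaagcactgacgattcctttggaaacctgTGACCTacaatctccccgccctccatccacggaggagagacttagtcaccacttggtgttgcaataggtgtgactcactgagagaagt
Rdh16: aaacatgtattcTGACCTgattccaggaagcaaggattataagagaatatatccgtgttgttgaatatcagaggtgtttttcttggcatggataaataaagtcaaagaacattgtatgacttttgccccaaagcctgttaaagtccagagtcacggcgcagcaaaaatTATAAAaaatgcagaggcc

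Promoter windows of 250 bases before and 50 after the start were found for 9 members in 13 windows; Rdh10 had none. AGGTCA, read on both strands, was in 3 of the 13 windows, those of Dhrs9, Rdh16 and 1 of Rdh11, and in 16.3% of all 32851 windows. TATAAA on the gene's strand was in 3 of 13, those of Dhrs9, Rdh16 and Aldh1a7, against 8.32% of all windows. The direct repeats DR1, DR2 and DR5, the arrangements bound by retinoid receptors, were in 0 of 13 windows and in 0.222%, 0.268% and 0.0974% of all. A match is a match of letters, and the lack of one says only that these letters are not in these windows.

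Rdh10, the retinol dehydrogenase required for retinoic acid in the embryo, had log2 levels of 1.86 and 1.94 in LF_LF, 1.88 and 2.37 in LF_HF, 2.47 and 2.35 in VAD_VAD, and 2.56 and 2.88 in BD_HF. Both VAD_VAD and both BD_HF arrays were above both LF_LF arrays, while LF_HF replicate 1 lay within the LF_LF range. The log2 difference from LF_LF was 0.82 in BD_HF (SE 0.323, 1.76-fold, adjusted p = 0.355), 0.51 in VAD_VAD (SE 0.323, adjusted p = 0.683) and 0.22 in LF_HF (SE 0.323, adjusted p = 0.776). The 3 Rdh10 probes all gave positive differences in each comparison, from 0.47 to 0.82 in BD_HF minus LF_LF and from 0.22 to 0.52 in VAD_VAD minus LF_LF. In BD_HF minus LF_HF the brightest probe, which stands for the gene, gave 0.59, and the others gave 0.04 and 0.37.

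An effect of the following repeat on the signal was not tested. The Rdh10 probe that stands for the gene, at chr1:16123127-16123186 of mm9, holds 1 run of 25 bases that occurs at positions 1 and 36 of its 60 bases, shown because no other member probe has a direct repeat longer than 8 bases.
Rdh10 probe repeat: tgtattagtgtgggtgtctctgtta

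Adh1, the abundant alcohol dehydrogenase of hepatocytes, had log2 levels of 8.47 and 8.40 in LF_LF, 8.0 and 8.84 in LF_HF, 8.07 and 8.59 in VAD_VAD, and 8.82 and 9.07 in BD_HF. Only BD_HF lay wholly above LF_LF, with a log2 difference of 0.51 (SE 0.388, 95% interval −0.40 to 1.41, adjusted p = 0.710). The difference was −0.11 in VAD_VAD (SE 0.388, 95% interval −1.01 to 0.80) and −0.02 in LF_HF, where replicate 1 was 0.47 below and replicate 2 was 0.44 above the LF_LF array of its slide.

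Adh1 has 3 probes. The brightest, at chr3:137952821-137952880 of mm9, shares 30 bases with a second one at chr3:137952851-137953504, whose 60 bases lie across an intron, so the 2 are not independent; the shared run is in capitals.
Adh1 second probe: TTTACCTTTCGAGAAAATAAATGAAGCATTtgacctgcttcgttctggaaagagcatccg
This second probe gave log2 differences from LF_LF of 0.57 in BD_HF and −0.11 in VAD_VAD. The third probe, at chr3:137945024-137945083 of mm9, lies on the opposite strand to the other probes, was well above background on LF_HF replicate 1 alone, with a signal of 30.2 there and 1.43 to 2.00 elsewhere, and was not kept.

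**Figure D2:**
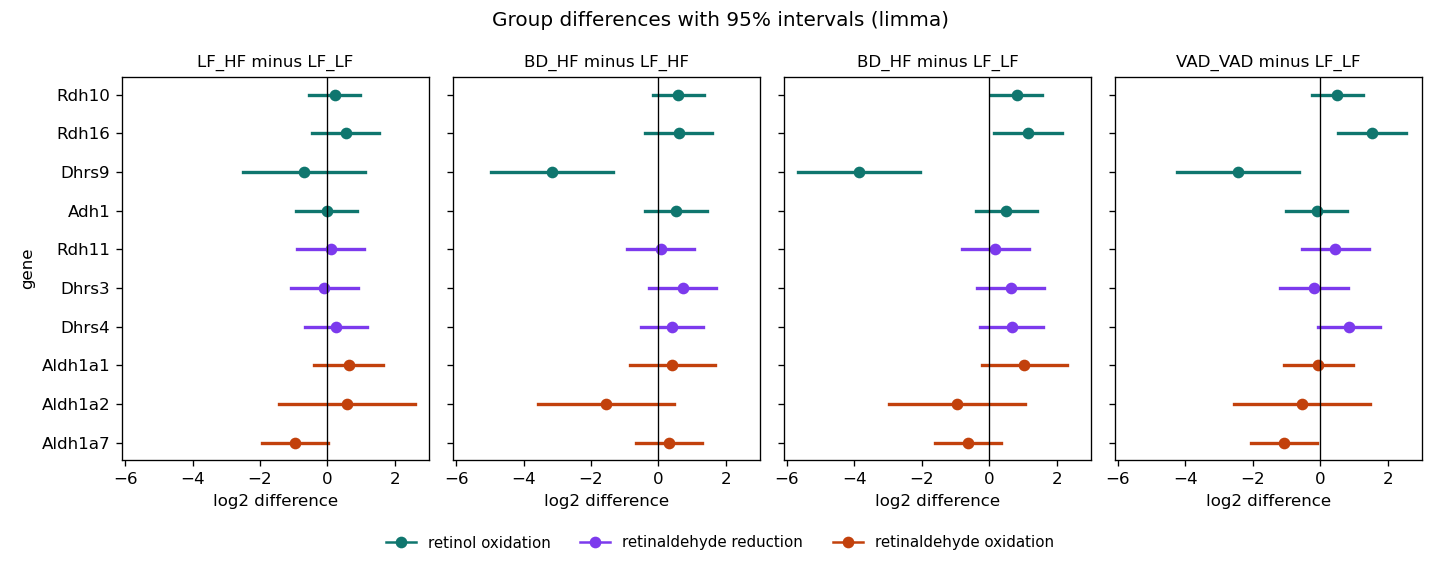
Difference between group means (log2, x axis) for each member in the 4 comparisons, as points with 95% intervals from limma, coloured by reaction. Intervals of Dhrs9 lie below 0 in all panels except LF_HF minus LF_LF, though Dhrs9 was not well above background in BD_HF. That of Rdh16 lies above 0 in BD_HF and VAD_VAD minus LF_LF. No adjusted p passed 0.05.

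The 3 retinaldehyde reductases differed from LF_LF by less than 1 on the log2 scale in every group. Dhrs4, a peroxisomal reductase of retinaldehyde and other carbonyls, had log2 levels of 3.26 and 3.34 in LF_LF, 3.07 and 4.02 in LF_HF, 3.81 and 4.11 in BD_HF, and 4.32 and 3.97 in VAD_VAD. Both VAD_VAD and both BD_HF arrays lay above both LF_LF arrays, and the LF_HF arrays lay on either side of them. The log2 difference from LF_LF was 0.85 in VAD_VAD (SE 0.395, 1.80-fold, 95% interval −0.08 to 1.77, adjusted p = 0.540) and 0.66 in BD_HF (SE 0.395, adjusted p = 0.584). In LF_HF it was 0.25 (SE 0.395), and 0.72 without LF_HF replicate 1 (n = 1 in LF_HF). Its single probe lies across an intron at chr14:56105010-56105943 of mm9 and is shown, like the second Adh1 probe, because only spliced RNA holds it whole.
Dhrs4 probe: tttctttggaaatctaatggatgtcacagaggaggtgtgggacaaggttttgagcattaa

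Dhrs3, a retinaldehyde reductase whose transcript is induced by retinoic acid in many cells, had log2 levels of 4.50 and 4.59 in LF_LF, 4.09 and 4.82 in LF_HF, 3.89 and 4.82 in VAD_VAD, and 5.0 and 5.35 in BD_HF. The VAD_VAD and the LF_HF arrays each lay on either side of LF_LF, and both BD_HF arrays lay above it. The log2 difference from LF_LF was −0.19 in VAD_VAD (SE 0.428, 95% interval −1.19 to 0.81, adjusted p = 0.902), an interval that holds differences of either sign. In BD_HF it was 0.63 (SE 0.428, adjusted p = 0.656), and the second Dhrs3 probe gave 0.63 as well. In BD_HF minus LF_HF it was 0.72 (SE 0.428, adjusted p = 0.782), and 0.36 without LF_HF replicate 1.

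Rdh11, a microsomal enzyme that reduces retinaldehyde and other aldehydes, had log2 levels of 3.24 and 2.54 in LF_LF, 3.17 and 2.79 in LF_HF, 2.65 and 3.47 in BD_HF, and 3.11 and 3.54 in VAD_VAD. Each of the other groups overlapped with LF_LF. The log2 difference from LF_LF was 0.44 in VAD_VAD (SE 0.426, 95% interval −0.56 to 1.43, adjusted p = 0.780), 0.17 in BD_HF (SE 0.426) and 0.10 in LF_HF (SE 0.426). The 2 slides disagreed in sign for VAD_VAD, at −0.13 and 1.00, and for BD_HF, at −0.59 and 0.93.

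Among the retinaldehyde oxidizers, Aldh1a7 was lower outside LF_LF. This close relative of Aldh1a1, placed here by family because its activity on retinaldehyde is reported to be weak, had log2 levels of 5.78 and 5.52 in LF_LF, 4.39 and 4.99 in LF_HF, 4.60 and 5.42 in BD_HF, and 4.30 and 4.85 in VAD_VAD. Each array of the other groups lay below both LF_LF arrays. The log2 difference from LF_LF was −1.08 in VAD_VAD (SE 0.418, 95% interval −2.05 to −0.10, adjusted p = 0.430), −0.96 in LF_HF (SE 0.418, adjusted p = 0.311) and −0.64 in BD_HF (SE 0.418, adjusted p = 0.634). Without LF_HF replicate 1 the LF_HF difference was −0.66 (n = 1 in LF_HF). With normexp background correction it was −1.04 (SE 0.291, adjusted p = 0.0452), past the threshold. The Aldh1a7 and Aldh1a1 probes share no run longer than 8 bases, and their best ungapped alignment matches 21 of 51 bases.

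Aldh1a1, the cytosolic retinaldehyde dehydrogenase of liver, had log2 levels of 7.14 and 6.89 in LF_LF, 6.71 and 7.21 in VAD_VAD, 7.20 and 8.09 in LF_HF, and 8.06 on the single BD_HF array with a value. The spot on BD_HF replicate 2 was left out as an outlier, so the BD_HF value has no replicate. VAD_VAD lay on either side of LF_LF, and LF_HF lay above it. The log2 difference from LF_LF was 1.04 in BD_HF (SE 0.519, n = 1, adjusted p = 0.502) and 1.06 with outlier spots kept (SE 0.457, n = 2, adjusted p = 0.488). It was 0.63 in LF_HF (SE 0.423, adjusted p = 0.515), 1.07 without LF_HF replicate 1 (n = 1 in LF_HF), and −0.06 in VAD_VAD (SE 0.423, 95% interval −1.08 to 0.96).

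Aldh1a2, the retinaldehyde dehydrogenase of the embryo and of mesenchymal and myeloid cells, was dim, with log2 levels of −3.23 and −3.71 in LF_LF, −1.36 and −4.40 in LF_HF, −3.76 and −4.28 in VAD_VAD, and −4.55 and −4.33 in BD_HF. The signal was 189 on LF_HF replicate 1 and 8.96 to 29.4 on the other 7 arrays. Both VAD_VAD and both BD_HF arrays lay below LF_LF, by a log2 difference of −0.55 (SE 0.861, adjusted p = 0.862) and −0.97 (SE 0.861, adjusted p = 0.771). In LF_HF minus LF_LF the log2 difference was 0.59 (SE 0.861, adjusted p = 0.779). It was −0.93 without LF_HF replicate 1 and 2.11 without LF_HF replicate 2, each with n = 1 in LF_HF. The direction is therefore that of the array used, and on LF_HF replicate 1 the dim members Dhrs9 and Aldh1a2 and the third Adh1 probe were all at their highest.

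The differences of the other members from LF_HF arrays also moved when replicate 1 was left out. In LF_HF minus LF_LF the log2 difference was then 0.47 (SE 0.272) for Rdh10, 0.64 (SE 0.489) for Rdh16, 0.41 (SE 0.315) for Adh1, 0.27 (SE 0.423) for Dhrs3 and −0.10 (SE 0.470) for Rdh11. In BD_HF minus LF_HF it went from 0.59 to 0.35 for Rdh10, from 0.60 to 0.51 for Rdh16, from 0.52 to 0.10 for Adh1 and from 0.08 to 0.27 for Rdh11. For Dhrs4 it went from 0.42 to −0.06, for Aldh1a1 from 0.42 to −0.03, for Aldh1a2 from −1.56 to −0.04 and for Aldh1a7 from 0.32 to 0.02. None of these passed the threshold with or without that array.

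The single probes of the other members, and the brightest where there are 2, lie on mm9 at chr10:127252579-127252638 for Rdh16, chr12:80276608-80276667 for Rdh11, chr4:144517350-144517409 for Dhrs3, chr19:20717764-20717823 for Aldh1a1, chr9:71143931-71143990 for Aldh1a2 and chr19:20767553-20767612 for Aldh1a7. Exon and UTR annotation of that build was not used here.

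**Figure D3:**
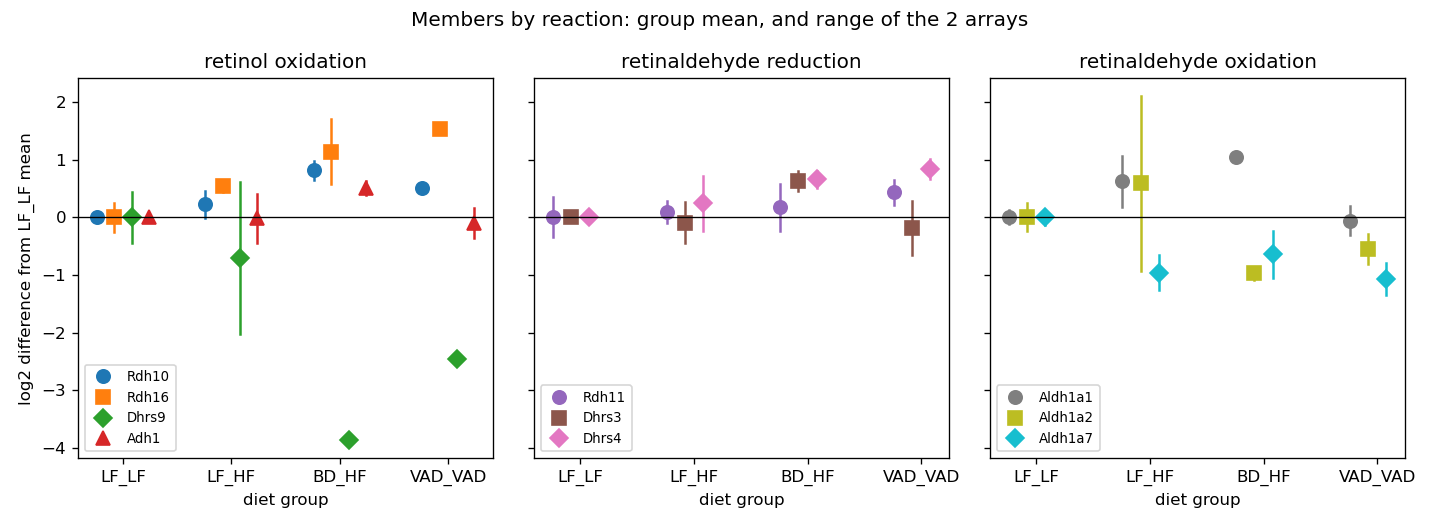
Members by the reaction they carry out, as log2 difference from the LF_LF mean (y axis): symbols are group means, lines span the 2 arrays of a group, and Aldh1a1 in BD_HF is 1 array. In VAD_VAD the retinol oxidizers run from −2.45 for Dhrs9 to 1.54 for Rdh16, wider than the reductases, at −0.19 to 0.85.

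By reaction, the 3 classes were compared as counts and medians, with no test. In VAD_VAD minus LF_LF, 2 of 4 retinol oxidizers, 2 of 3 reductases and 0 of 3 retinaldehyde oxidizers were positive, with median log2 differences of 0.20, 0.44 and −0.55, beside 0.07 over all genes. In BD_HF minus LF_LF, 3 of 4, 3 of 3 and 1 of 3 were positive, with medians of 0.66, 0.63 and −0.64, beside 0.08 over all genes. In LF_HF minus LF_LF, 2 of 4, 2 of 3 and 2 of 3 were positive, with medians of 0.10, 0.10 and 0.59, beside −0.06 over all genes. Without LF_HF replicate 1 these were 3, 2 and 1, with medians of 0.44, 0.27 and −0.66, and without replicate 2 they were 2, 1 and 2, with medians of 0.21, −0.23 and 0.18. In BD_HF minus LF_HF, 3 of 4, 3 of 3 and 2 of 3 were positive, with medians of 0.56, 0.42 and 0.32, beside 0.17 over all genes. They were 3, 2 and 1, with medians of 0.23, 0.27 and −0.03, without LF_HF replicate 1.

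The classes thus stood in a different order on each LF_HF array, and in the same order on both VAD_VAD arrays. The median of the retinaldehyde oxidizers minus their LF_LF mean was −0.31 and −0.80 on the 2 VAD_VAD arrays, that of the reductases 0.22 and 0.66, and that of the retinol oxidizers 0.10 and 0.30. With normexp the VAD_VAD median of the retinaldehyde oxidizers moved to −0.11, and in BD_HF minus LF_LF to 0.02. With quantile scaling the VAD_VAD median of the retinol oxidizers was −0.09. Each median rests on 3 or 4 members. Aldh1a1 itself differed from LF_LF by −0.06 in VAD_VAD and by 1.04 in BD_HF (n = 1), away from the median of its class. Over all 10 members the median log2 difference was −0.08 in VAD_VAD minus LF_LF and 0.57 in BD_HF minus LF_LF.

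**Figure D4:**
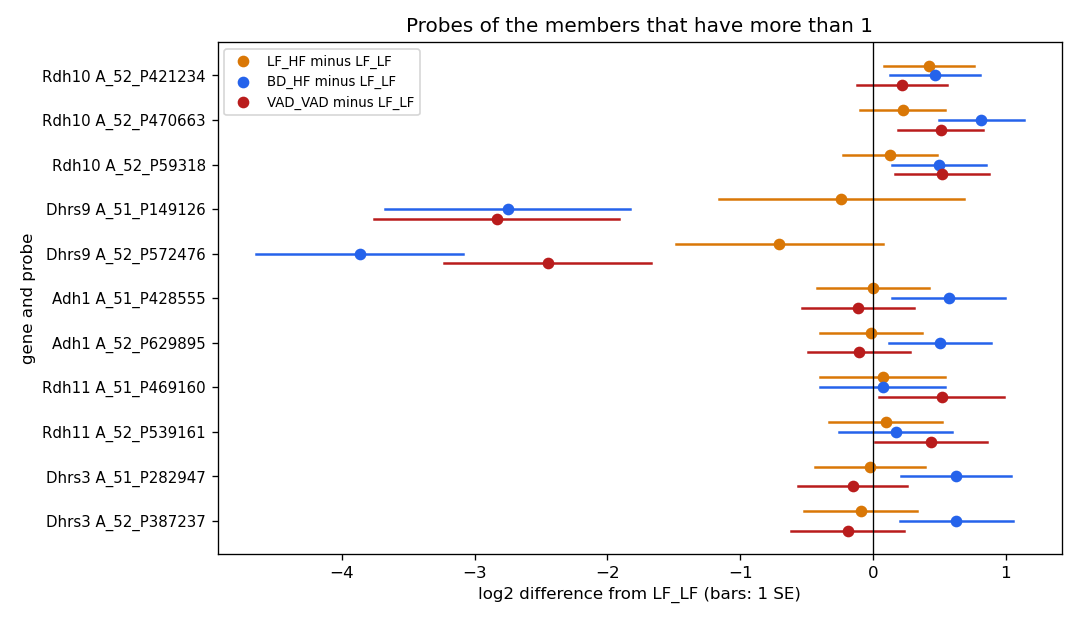
Log2 difference from LF_LF (x axis, points with 1 SE) for each kept probe of the 5 members that have more than 1, in LF_HF, BD_HF and VAD_VAD. The 2 Dhrs9 probes lie between −2.45 and −3.87 in BD_HF and VAD_VAD, and probes of Rdh10, Adh1, Rdh11 and Dhrs3 lie within 1 of 0. The dimmer Dhrs9 probe was not well above background in BD_HF or VAD_VAD, nor the brighter one in BD_HF. Those points are measured values, for which the text gives bounds.

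Across the 8 arrays, the genes whose levels followed Dhrs9 most closely, of 16168 with a value on every array, were Aoc1 (Pearson r = 0.992), Mthfd2 (0.967), Aldh18a1 (0.963), Tnfrsf10b (0.957) and Pfdn4 (0.955). All 5 were highest on LF_HF replicate 1 or in LF_LF. Aoc1 was well above background on 3 of 8 arrays, Aldh18a1 and Tnfrsf10b on 4, Mthfd2 on 6 and Pfdn4 on all 8. For all but Pfdn4 the correlation thus rests in part on values not well above background. Among members, the levels of Adh1 and Dhrs3 had r = 0.962 and those of Rdh10 and Dhrs9 r = −0.960. These correlations are descriptions over 8 arrays that share the scaling and the slides.

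Of 38 other dehydrogenases and reductases of the same families, 30 were tested. Aldh1b1, a mitochondrial aldehyde dehydrogenase that can also oxidize retinaldehyde, was the only one called. Its log2 levels were 4.74 and 4.92 in LF_LF, 2.34 and 2.73 in LF_HF, 2.61 and 3.22 in BD_HF, and 2.74 on both VAD_VAD arrays. All 6 arrays of the other groups lay below both LF_LF arrays. It fell in LF_HF by 2.29 on the log2 scale (SE 0.344, 4.90-fold, adjusted p = 0.0229) and in BD_HF by 1.91 (SE 0.344, 3.77-fold, adjusted p = 0.0473). In VAD_VAD the log2 difference was −2.09 (SE 0.344, adjusted p = 0.0553). Of the alternatives, 13 of 23 kept the call in each of the 2 comparisons, and all 23 kept the sign. The median log2 difference of the 30 was 0.19 in LF_HF, 0.46 in BD_HF and 0.49 in VAD_VAD against LF_LF, with 18, 22 and 24 of 30 positive. Without LF_HF replicate 1, 1 rose and 3 fell in LF_HF, 4 rose and 2 fell in BD_HF, and 2 rose and 1 fell in VAD_VAD.

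Of 30 other genes of retinoid handling, 21 were tested, and in VAD_VAD minus LF_LF 1 rose and 3 fell. Lrat, which esterifies retinol for storage, had log2 levels of 1.16 and 0.61 in LF_LF and −5.57 and −4.33 in VAD_VAD, a log2 difference of −5.83 (SE 0.659, adjusted p = 0.0191) with 1 of 2 VAD_VAD arrays above background. The difference ran from −6.46 to −2.82 over the alternatives. Cyp26b1, which degrades retinoic acid, went from 2.90 and 1.59 to −4.09 and −6.82 (adjusted p = 0.0251), again with 1 of 2 VAD_VAD arrays above background, and its log2 difference ran from −9.06 to −3.99. Without LF_HF replicate 1, 4 genes of the list rose and 6 fell in VAD_VAD, 4 rose and 3 fell in LF_HF, and 2 rose and 3 fell in BD_HF. Fabp5 encodes a lipid-binding protein that can carry retinoic acid, and it was not well above background in LF_LF. It was at least 9.58-fold higher in VAD_VAD (adjusted p = 0.0176 by limma). With both LF_HF arrays averaged it was at least 4.67-fold higher in LF_HF (adjusted p = 0.0202 by limma). The LF_HF levels were −2.56 on replicate 1 and −3.94 on replicate 2, against a bound of −5.47 in LF_LF, so replicate 2 alone gives a smaller bound. Lpl, a lipase that also frees retinol from lipoprotein esters, fell in LF_HF (10.1-fold, n = 1 in LF_HF, adjusted p = 0.0228) and in BD_HF (7.88-fold, adjusted p = 0.0221) against LF_LF. With 1 LF_HF array, the spread behind the first of these comes from the other groups alone.

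None of the 6 retinoic acid receptor genes was called in any comparison by limma, with 2, 1, 1 and 0 at an unadjusted p under 0.05 in LF_HF minus LF_LF, BD_HF minus LF_HF, VAD_VAD minus LF_LF and BD_HF minus LF_LF. Without LF_HF replicate 1, 2 fell in LF_HF and 1 in VAD_VAD against LF_LF. Rarb, itself a target of retinoic acid, had log2 levels of 0.95 and 0.81 in LF_LF and −3.17 and −2.38 in VAD_VAD, a difference of −3.66 (SE 0.601, adjusted p = 0.0551). Rara differed by 0.90 (SE 0.798, adjusted p = 0.764).

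The summed markers of macrophages and of cholangiocytes were highest in LF_LF, the group where Dhrs9, Aldh1a7 and Aldh1b1 were high. The sums add linear signals, so bright genes such as Lyz2 and Spp1 weigh most in them. The summed signal of 15 Kupffer cell and macrophage markers, relative to the 75th percentile of each array, was 230 to 244 in LF_LF, 84.2 to 95.9 in LF_HF, 120 to 136 in BD_HF and 111 to 164 in VAD_VAD. Of the 15, 4 fell in LF_HF (Trem2, Itgax, Lyz2 and Cd68), 3 in BD_HF (Trem2, Itgax and Lyz2) and 1 in VAD_VAD (Trem2), and Timd4 rose in BD_HF. Leaving out LF_HF replicate 1, 9 fell in LF_HF, 4 in BD_HF and 3 in VAD_VAD. With slide as a block in the limma fit, Lyz2 in BD_HF had an adjusted p of 0.0573. In each of the 3 groups compared with LF_LF, 3 of the 15 had a mean above it. Clec4f had log2 levels of 3.49 and 3.34 in LF_LF against 3.58 to 4.24 on all other arrays. Timd4 had −3.69 and −3.21 in LF_LF against −2.44 to −1.43. For 7 cholangiocyte markers the sum was 20.5 to 29.7 in LF_LF, 7.91 to 8.88 in LF_HF, 11.9 to 12.6 in BD_HF and 6.99 to 7.87 in VAD_VAD; of 9 tested, Krt19 (n = 1 in LF_HF, with the spread of the other groups) and Spp1 fell in LF_HF and Krt23 fell in VAD_VAD. With slide as a block these 3 had adjusted p values of 0.0795, 0.0523 and 0.0612. When LF_HF replicate 1 was left out, 4 of 9 fell in each of the 3 groups. The part of macrophages and cholangiocytes in the levels of Dhrs9, Aldh1a7 and Aldh1b1 was not tested. Not every list was highest in LF_LF. On the same scale the endothelial sum was 46.1 to 46.5 in LF_LF and 62.1 to 75.4 in BD_HF, though lower in LF_HF. The neutrophil sum was 5.74 to 6.09 in LF_LF and 27.2 to 35.4 in VAD_VAD, though lower in BD_HF. The erythroid sum was 84.8 to 87.8 in LF_LF and 189.7 to 343.3 in VAD_VAD.

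For stellate cells and fibroblasts, where Aldh1a2 and Lrat are also expressed, the sum of 17 markers was 145 to 170 in LF_LF, 85.8 to 101 in LF_HF, 110 to 153 in BD_HF and 91 to 139 in VAD_VAD. Of 18 tested, Col1a1, Col3a1 and Pdgfrb fell in all 3 groups against LF_LF, Col1a2 in LF_HF and BD_HF, and Lrat and Ngfr in VAD_VAD. The list did not move as 1, since 5, 6 and 5 of the 18 had a mean above LF_LF in LF_HF, BD_HF and VAD_VAD, with 0 called. Colec10 had log2 levels of 1.73 and 1.35 in LF_LF against 1.99 to 3.44 on all other arrays. Ecm1 had 5.50 and 5.26 in LF_LF against 5.56 to 6.51. With slide as a block Pdgfrb and Ngfr in VAD_VAD had adjusted p values of 0.0553 and 0.05001. Without LF_HF replicate 1, 7 of 18 fell in LF_HF and in VAD_VAD and 4 in BD_HF, and 1 rose in each of the last 2. The part of these cells in the level of Aldh1a2 was not tested. Hepatocyte markers summed to 4747 to 4784 in LF_LF, 2973 to 6826 in LF_HF, 5196 to 6062 in BD_HF and 5453 to 6856 in VAD_VAD, and 1 of 16, Cyp2e1, rose in BD_HF (5.89-fold, adjusted p = 0.0426, 0.0558 with slide as a block). Leaving out LF_HF replicate 1, 2 of 16 rose in LF_HF, 1 in VAD_VAD and 2 in BD_HF. The part of hepatocyte content in the levels of Adh1, Aldh1a1 and Rdh16 was not tested.

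In the remaining marker lists 0 of 12 endothelial, 0 of 9 neutrophil, 0 of 5 erythroid and 0 of 5 adipocyte genes were called in any pairwise comparison by limma. The F-test over the 4 groups called 0, 1, 0 and 0 of these in that order. At an unadjusted p under 0.05, VAD_VAD minus LF_LF had 1, 3, 4 and 0 of these in that order, and LF_HF minus LF_LF had 5, 1, 0 and 3. With LF_HF replicate 1 left out, 3 endothelial genes fell in LF_HF, 2 neutrophil and 2 erythroid genes rose in VAD_VAD, and 1 neutrophil gene fell and 1 adipocyte gene rose in BD_HF. Those with the largest VAD_VAD minus LF_LF differences were Tek at 1.10 and Stab2 at 0.91, S100a8 at 2.50 and S100a9 at 2.24, Ahsp at 3.24, and Cfd at −2.07 and Cidec at −1.78. Of these, Ahsp was well above background on 1 of 2 LF_LF arrays, and Cfd on neither VAD_VAD array, which bounds it at at least 1.84-fold lower. Of 5 pancreatic acinar genes, Cela2a rose in LF_HF (4.69-fold, adjusted p = 0.0332 by limma). Its log2 levels were −1.88 and −2.72 in LF_HF and −4.70 and −4.36 in LF_LF. The log2 difference was 1.81 without LF_HF replicate 1.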

How the data were processed

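The arrays, Agilent design 014868, were scanned and quantified by the authors with Agilent's Feature Extraction software, version 10.7.3.1 in the headers. The deposited files hold the authors' processed signal, a linear intensity to which the software applied spatial and multiplicative detrending and background handling, array by array, per the file headers. A deposited table of the whole series repeats this intensity, with a largest relative difference of 0.497%. The submitters' processing notes name limma, with no version given in the sources used here. Every column had a sample.

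Here log2 was taken of the processed signal and the 75th percentile of each array over gene probes was subtracted. Control and outlier spots were left out, spots of a probe averaged, and the brightest kept probe stood for its gene. Groups were compared with limma 3.58.1 in R 4.3.3 on 8 arrays (4 residual and 3.43 prior degrees of freedom), with Benjamini-Hochberg adjustment over 17267 genes in each comparison; an adjusted p under 0.05 counts as called. The fit was run on simulated data with independent noise. Those data had no outlier array, slide effect or background floor, so that run does not cover these features of the arrays. LF_HF minus LF_LF, BD_HF minus LF_HF and VAD_VAD minus LF_LF are comparisons the study states; BD_HF minus LF_LF was added. Named were all members, listed genes past the threshold (up to 5 per list, comparison and direction), the 2 largest VAD_VAD differences of lists with none, and the 5 genes most like the member with the smallest F-test p. Of the genes this rule names, 2 are not reported here, though list counts include them. Members and lists were chosen with earlier results of these data known.

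The pairing of replicate numbers comes from the slides in the file headers. Deviations of same-numbered arrays correlated at 0.0982 to 0.305 between groups. Probe positions are those of the files, on mm9; exon annotation of that build was not used here. Plots were drawn with matplotlib in Python. The number of arrays limits the precision.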

Additional observations from a re-analysis of the deposited data

How the results depend on the processing

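With 2 arrays a group, adjusted p values move with the estimate of the spread. Of 950 values of members under the alternatives, 929 kept their side of the threshold, 21 went past it and 0 lost a call; 33 changed sign, each with the value or its alternative within 1 SE of 0. No member was called in the reported fit, and the numbers called under alternatives were as follows. LF_HF minus LF_LF had 1 with normexp. BD_HF minus LF_LF had 1 with quantile scaling, median scaling, slide as a block, the replicate block (the same fit), trend and robust variances, and only the groups compared, each time Dhrs9, and 2 with array quality weights, Dhrs9 and Rdh10. VAD_VAD minus LF_LF had 1, Dhrs9, with array quality weights and with only the groups compared. Of 17267 genes, array quality weights called 2794 in BD_HF minus LF_LF and 1155 in VAD_VAD minus LF_LF. Only the groups compared called 2571 and 519 in that order, and normexp 2525 in LF_HF minus LF_LF. In BD_HF minus LF_LF, quantile scaling called 338, median scaling 57, slide as a block 249, and trend and robust variances 615. The F-test had 1 with quantile scaling, array quality weights, and trend and robust variances. The block changed no other member's call. Leaving out 1 array gave 0 to 1 in LF_HF minus LF_LF, 0 to 4 in BD_HF minus LF_HF, 0 to 1 in VAD_VAD minus LF_LF, 0 to 1 in BD_HF minus LF_LF and 0 to 3 in the F-test. All calls in these came from leaving out an LF_HF array. Each such fit leaves 1 array in a group. The counts over all genes moved in the same fits, as given below, so the member counts are not read as results about the members. Without LF_HF replicate 1, the log2 difference of Dhrs9 in LF_HF minus LF_LF was −2.02. Without LF_HF replicate 2, the log2 difference in BD_HF minus LF_HF was 0.84 for Rdh10, −4.48 for Dhrs9, 0.89 for Dhrs4 and −3.08 for Aldh1a2. That of Aldh1a2 in LF_HF minus LF_LF was then 2.11. Array weights were equal within a group, at 0.195 in LF_HF and 3.27 in LF_LF, so they act as group weights. Keeping outlier spots and testing only RefSeq names were chosen after seeing the data and called 0 members. Dhrs9 has no value where probes must be above background on all 8 arrays, and the F-test has none with only the groups compared.

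Counts over all genes moved more. Against 446 called in LF_HF minus LF_LF, normexp gave 2525 (57.3% higher, against 23.1%), median scaling 137 (10.2% higher), quantile scaling 888, array weights 20 (50% higher) and no filter 30. Against 106 in VAD_VAD minus LF_LF, normexp gave 379 (27.2% higher, against 15.1%), median scaling 34, slide as a block 59, array weights 1155 (29.1% higher) and no filter 0. Against 280 in BD_HF minus LF_LF, normexp gave 735, median scaling 57 (15.8% higher, against 28.6%), array weights 2794 and no filter 0. The reported fit called 1 gene in BD_HF minus LF_HF. With only the groups compared, LF_HF minus LF_LF had 0, VAD_VAD minus LF_LF 519 and BD_HF minus LF_LF 2571. Leaving out 1 array gave 0 to 11863, 0 to 11340, 0 to 916 and 0 to 1586 in LF_HF minus LF_LF, BD_HF minus LF_HF, VAD_VAD minus LF_LF and BD_HF minus LF_LF. Without LF_HF replicate 2 they were 11863 (78.2% higher), 11340, 621 and 1121, and without LF_HF replicate 1 1946, 0, 916 and 1586. Without either LF_LF array all 4 were 0, and VAD_VAD minus LF_LF was also 0 without any 1 array of BD_HF or VAD_VAD. BD_HF minus LF_LF was 0 without either BD_HF array and 106 and 46 without VAD_VAD replicates 1 and 2, and LF_HF minus LF_LF was 78 to 176 without any 1 array of those 2 groups. Median scaling moved the median of all genes to −0.77, 0.98, 0.17 and 0.18 in LF_HF minus LF_LF, BD_HF minus LF_HF, VAD_VAD minus LF_LF and BD_HF minus LF_LF; the causes were not tested. Dhrs9, Aldh1a2, Fabp5, Ahsp and Cfd lie near background, which limits what their differences show.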
